A study of Mus musculus with 6 samples.

Results

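YAP (gene Yap1) and TAZ (gene Wwtr1) are transcriptional coactivators that bind no DNA themselves and act through the TEAD transcription factors. The kinases Lats1 and Lats2, at the end of the Hippo pathway, phosphorylate both coactivators, which are then held in the cytoplasm by 14-3-3 proteins or degraded, and angiomotin proteins such as Amotl1 and Amotl2 also bind and retain them. In spreading fibroblasts grown in serum the coactivators are typically nuclear, where Ctgf, Cyr61 and Ankrd1 are their best known targets, and Lats2 and Amotl2 are targets that feed back on the pathway. The RNA of 10 genes of this system was compared between NIH/3T3 cells, which are immortalized mouse fibroblasts, carrying wild type or 8KR RPB1 (RPB1 is the catalytic large subunit of RNA polymerase II). The genes were chosen by name, with earlier results of these arrays in view, and for each gene the probe set was selected on its mean over the 6 arrays, the highest being kept. All 10 were found among 17145 tested genes (Ctgf is listed as Ccn2 and Cyr61 as Ccn1). Of these, 9 have 1 probe set and Tead1 has 2.

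All cells were stably transfected with HA-tagged mouse RPB1 and cultured with 10% bovine calf serum in DMEM, to which α-amanitin, a toxin that blocks this polymerase, was added at 2 µg/ml. In 3 samples the construct was wild type, and in the other 3 all lysines at position 7 of the repeats in its C-terminal domain were replaced by arginines (8KR), which keeps the charge but cannot be acetylated. Each sample was read on 1 Affymetrix Mouse Gene 1.0 ST array, and the labels call the samples biological replicates. The sources used here do not say whether the samples of a group came from separate transfections or clones, so p-values measure the spread between these samples, which may be technical, and a difference between stable lines cannot be told apart from an effect of the mutation.

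Median log2 intensities of the 6 arrays lay between 4.49 and 4.54, and pairs of arrays correlated at 0.982 to 0.984 if of the same group and at 0.975 to 0.978 if not. Polr2a, which encodes RPB1, had a log2 intensity of 12.10 ± 0.01 (SD, n = 3) in wild type and 12.13 ± 0.01 (SD, n = 3) in 8KR cells, and whether its probe set reads the construct was not tested. The study itself reported equivalent expression of the wild type and 8KR constructs, with acetylation in the wild type one only. All 10 fibroblast markers checked were well expressed, from 6.56 for Col5a1 to 12.01 for S100a4. Of these, 8 had lower means in 8KR cells, 4 had an unadjusted p under 0.05 and 1, Col3a1, passed. Over all tested genes, 21.8% had an unadjusted p under 0.05 and 5.39% passed, or 10.7% of those at least as bright as Lats2. The levels of the 10 fibroblast markers summed to between 98.48 and 99.64 on wild type arrays and between 97.25 and 97.37 on 8KR arrays. The part of these markers in the level of Ctgf was not tested. The 5 epithelial and 4 tested endothelial markers all had means below 5, and of 2 tested macrophage markers 1 had, none of these differing past the test. So had 4 of 6 muscle markers, which bear on Ankrd1 because it is also a gene of heart and skeletal muscle. These were Myh6, Myog, Myod1 and Des, taking the mean over the 6 arrays. The other markers lay above 5, namely Actc1 (5.48 in wild type and 5.42 in 8KR cells) and Tnnt2 (6.40 and 5.98). Tnnt2 and Des had differences of -0.41 and -0.74 and did not pass (adjusted p = 0.0575 and 0.0945 from limma). The 6 levels summed to between 29.11 and 29.27 on wild type arrays and between 27.28 and 28.29 on 8KR arrays, and their part in the level of Ankrd1 was not tested.

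In 8KR cells, Ankrd1 and Tead2 rose and Ctgf fell, while the other 7 genes did not pass the test. The test was limma over all 28543 probe sets kept, with p-values adjusted by the Benjamini-Hochberg method, and a gene passed at an adjusted p under 0.05. The 3 genes of 10 compare with 5.39% of all tested genes, of which 2.33% rose and 3.06% fell. The genes are bright on these arrays, and among the 5636 genes at least as bright as the dimmest of them, Lats2, 10.7% passed. Because the genes were picked with results of this comparison known, nothing is read from the count. The mean was higher in 8KR cells for 5 genes and lower for 5, with a median log2 difference of 0.04 against 0.01 over all tested genes. The median size of the difference was 0.27, against 0.14 over all tested genes and 0.18 over those at least as bright. For every gene except Amotl2 the arrays of the groups did not overlap, with all 8KR arrays higher for 5 genes and lower for 4. Such separation held for 29.7% of all tested genes and 50.0% of the equally bright ones.

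**Figure D1:**
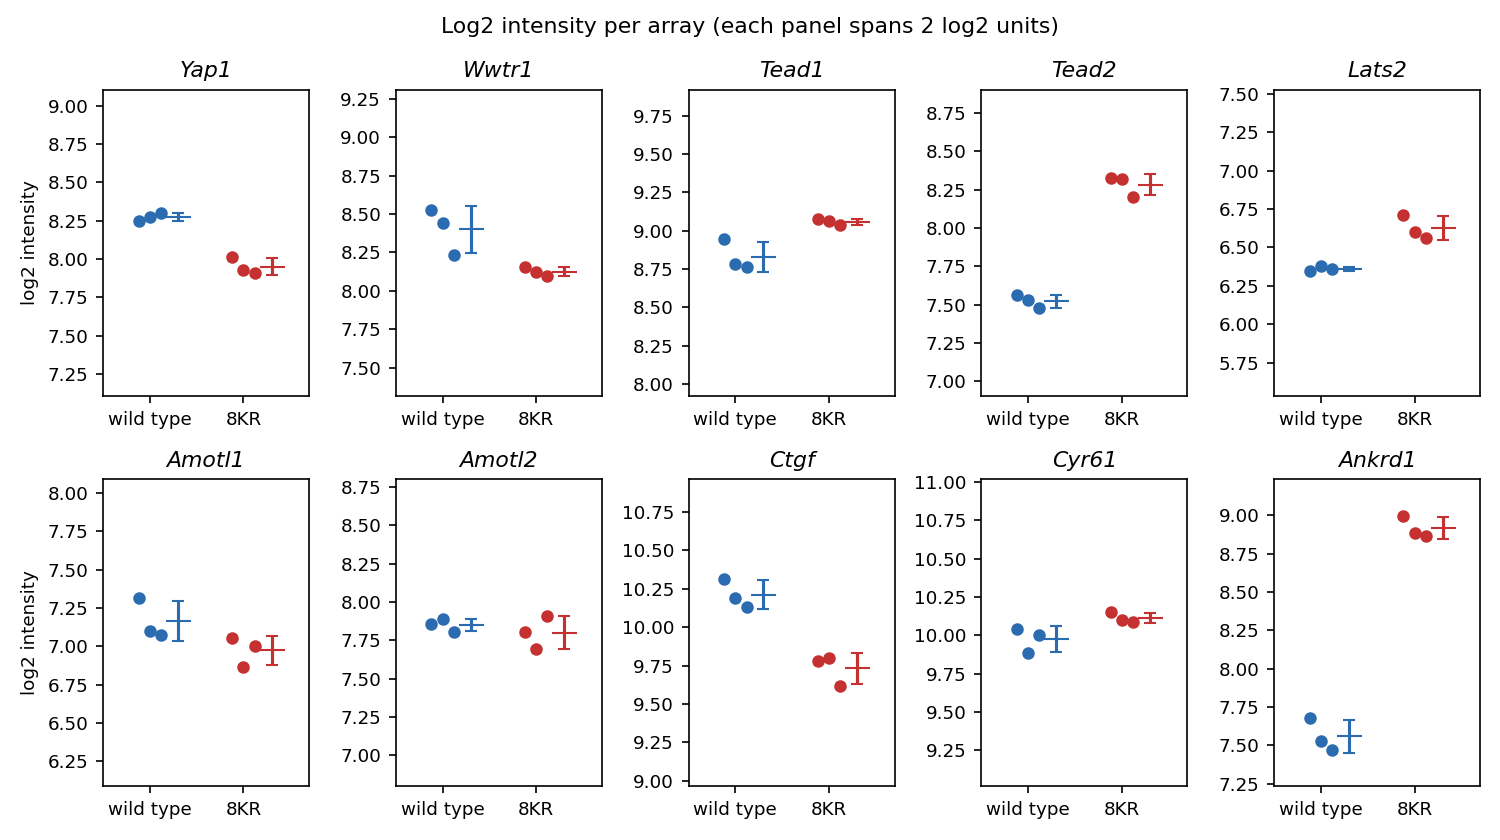
Log2 intensity (vertical axis) of each of the 10 genes, where a point is an array (wild type in blue, 8KR in red, 3 each) and the mark beside the points is the mean with its SD. Each panel spans the same range of log2 units around its own centre. The gap between groups is widest for Ankrd1, from 7.56 to 8.92, and only the points of Amotl2 overlap.

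Among the targets, Ankrd1, an ankyrin repeat protein of the nucleus and, in muscle, the sarcomere, showed the largest change. Its log2 intensities were 7.68, 7.53 and 7.47 in wild type and 9.00, 8.89 and 8.87 in 8KR cells. The 8KR arrays thus lay above the highest wild type array by more than the spread within either group. The mean went from 7.56 ± 0.11 to 8.92 ± 0.07 (SD, n = 3 each), a log2 difference of 1.36 (standard error 0.09, adjusted p = 0.00239 from limma) or 2.56-fold. Only 0.607% of tested genes had a larger difference in either direction. Ankrd1 passed without any 1 of the 6 arrays and under all 8 alternative settings.

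Ctgf, which encodes the secreted matricellular protein CCN2, moved the other way. It stood at 10.31, 10.19 and 10.13 in wild type and at 9.78, 9.80 and 9.61 in 8KR cells. The lowest wild type array was above the highest 8KR array. Ctgf fell by 0.48 on the log2 scale (standard error 0.09, adjusted p = 0.0466 from limma), which is 1.39-fold lower. This call was near the threshold. It was lost when any 1 of the 6 arrays was left out (adjusted p = 0.101 to 0.128 from limma), although the difference stayed between -0.52 and -0.42.

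Cyr61, the closest relative of Ctgf among the genes examined and a secreted protein of the same family, did not pass. Its log2 intensities were 10.04, 9.88 and 10.00 in wild type and 10.15, 10.10 and 10.09 in 8KR cells. The groups were separate, but by less than the spread among the wild type arrays. The log2 difference was 0.14, with a 95% interval of -0.05 to 0.33 (adjusted p = 0.402 from limma). The responses of Ctgf and Cyr61 were also compared directly, array by array, and differed by 0.62 on the log2 scale (standard error 0.07). The arrays of the groups did not overlap in this measure (p = 0.1 and 0.2 after adjustment over 4 pairs of paralogs, two-sided exact permutation test, where 0.1 is the smallest p that 3 arrays against 3 can give).

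The feedback targets Lats2 and Amotl2 did not pass. Lats2, the kinase that inhibits YAP, read 6.35, 6.38 and 6.36 in wild type and 6.71, 6.60 and 6.56 in 8KR cells, so that all 8KR arrays were higher. Its log2 difference was 0.26, with a 95% interval of 0.08 to 0.45 (adjusted p = 0.121 from limma). Amotl2 read 7.85, 7.89 and 7.81 in wild type and 7.80, 7.69 and 7.91 in 8KR cells. These ranges overlapped, and its difference of -0.05 had an interval of -0.26 to 0.16 (adjusted p = 0.806 from limma).

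For 8 of the 10 genes the RefSeq promoter table (build GRCm38.p6) gave a start site, and the 250 bases before each were searched for the TEAD motif GGAATG on both strands. Promoters of Ctgf and Tead1 were not analysed here. The sequences of 4 are printed to set genes that rose, with and without a match, beside genes with a match that did not pass. Ankrd1, at chr19:36119845-36120094 (minus strand), rose and holds 2 matches. Cyr61, at chr3:145649986-145650235 (minus strand), and Amotl2, at chr9:102717554-102717803 (plus strand), hold 1 match each and did not pass. Tead2, at chr7:45215542-45215791 (plus strand), rose and holds none. They run 5′ to 3′ on the strand of the gene and end at the base before the start site, and capitals mark the motif or its reverse complement CATTCC.
Ankrd1: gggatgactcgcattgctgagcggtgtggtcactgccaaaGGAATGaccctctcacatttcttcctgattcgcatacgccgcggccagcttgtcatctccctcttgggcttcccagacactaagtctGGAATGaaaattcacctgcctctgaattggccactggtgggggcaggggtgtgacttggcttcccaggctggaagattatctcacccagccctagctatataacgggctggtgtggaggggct
Cyr61: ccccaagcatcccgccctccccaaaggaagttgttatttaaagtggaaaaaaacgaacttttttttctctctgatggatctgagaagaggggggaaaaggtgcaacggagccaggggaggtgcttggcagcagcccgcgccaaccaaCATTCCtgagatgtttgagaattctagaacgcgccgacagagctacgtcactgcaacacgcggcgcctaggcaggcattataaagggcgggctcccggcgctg
Amotl2: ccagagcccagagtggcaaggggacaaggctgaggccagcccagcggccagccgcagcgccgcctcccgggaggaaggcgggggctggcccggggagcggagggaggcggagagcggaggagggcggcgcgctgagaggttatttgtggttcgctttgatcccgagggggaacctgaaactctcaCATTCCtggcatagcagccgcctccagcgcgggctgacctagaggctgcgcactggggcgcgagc
Tead2: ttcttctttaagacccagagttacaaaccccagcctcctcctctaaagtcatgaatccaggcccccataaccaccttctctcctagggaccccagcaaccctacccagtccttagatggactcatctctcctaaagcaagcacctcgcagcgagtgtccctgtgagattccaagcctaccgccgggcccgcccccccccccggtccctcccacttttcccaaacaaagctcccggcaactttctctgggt

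The motif was found before 5 of the 8 genes, namely Ankrd1, Cyr61, Amotl2, Yap1 and Wwtr1, and before 14.4% of the 27025 genes in the table. In Ankrd1 the matches begin 210 and 123 bases before the start site, in Cyr61 103 bases, in Amotl2 65 bases and in Yap1 141 bases before it. Wwtr1 has 2 start sites, whose windows hold the same match 136 and 170 bases upstream. The log2 differences of the 5 genes with a match ran from -0.33 for Yap1 to 1.36 for Ankrd1, so that the match did not go with 1 direction. The letters TATAA, searched on both strands as the core of a TATA box, were found before Ankrd1 and Cyr61, within 26 bases of the start site. Anywhere in the window of 250 bases they stand before 25.8% of all genes, and the share at this distance was not counted. Neither the AP-1 motif TGANTCA, present before 7.82% of genes, nor the CArG box of serum response factor, present before 1.62%, was found in these 8 promoters. A match shows only that the letters stand in the window, and their absence says nothing about a factor.

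**Figure D2:**
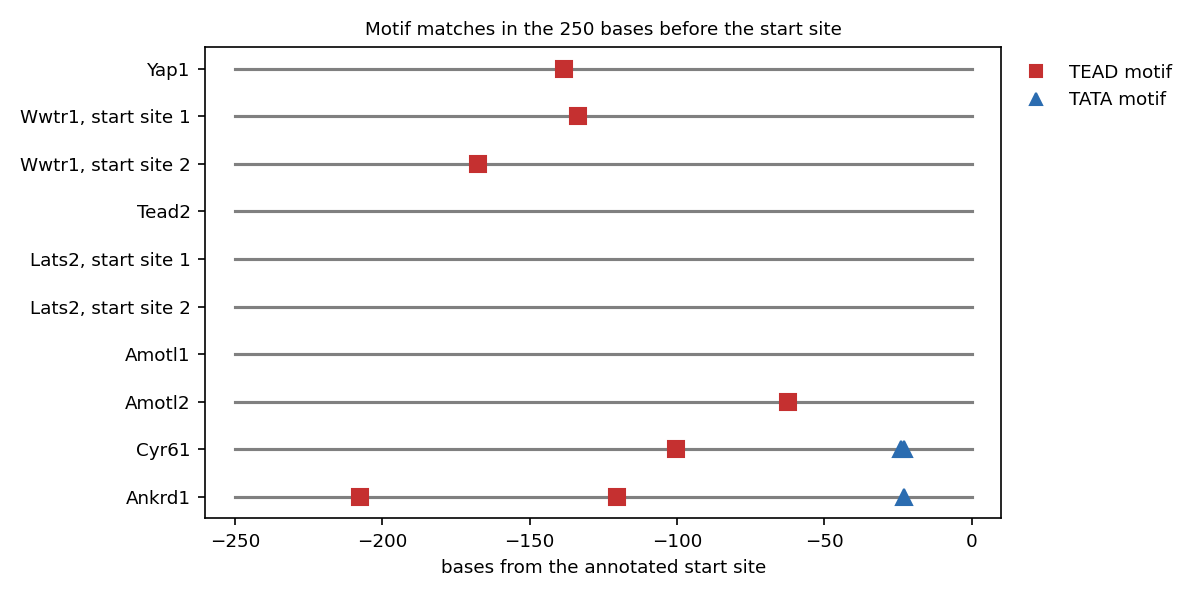
Position of matches (horizontal axis, bases from the annotated start site) to the TEAD motif (red squares) and the TATA motif (blue triangles) on either strand, with 1 grey line per start site. Ankrd1 has 2 TEAD matches, and Tead2, Lats2 and Amotl1 have none.

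Of the coactivators, neither Yap1 nor Wwtr1 passed, although both lay lower on all 8KR arrays. Yap1 read 8.25, 8.28 and 8.30 in wild type and 8.01, 7.93 and 7.91 in 8KR cells. Its values were tightly grouped, with an SD of 0.03 in wild type and 0.06 in 8KR cells. The log2 difference of -0.33 had a 95% interval of -0.50 to -0.15 (adjusted p = 0.0655 from limma). Wwtr1 read 8.53, 8.44 and 8.23 in wild type and 8.16, 8.12 and 8.10 in 8KR cells, with most of its spread among the wild type arrays. Its difference was -0.28, with an interval of -0.51 to -0.04 (adjusted p = 0.192 from limma). Set against each other array by array, the differences of the coactivators were 0.05 apart (p = 0.8, two-sided exact permutation test), with a standard error of 0.10.

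Of the TEAD factors, which carry YAP and TAZ to DNA, Tead2 passed and Tead1 did not. For Tead2, the log2 intensities were 7.56, 7.53 and 7.48 in wild type and 8.33, 8.32 and 8.20 in 8KR cells, and all 8KR arrays were far above all wild type arrays. Tead2 rose from 7.52 ± 0.04 to 8.28 ± 0.07 (SD, n = 3 each), a log2 difference of 0.76 (standard error 0.08, adjusted p = 0.00752 from limma) or 1.69-fold. Only 2.44% of tested genes changed by more. Its call held under 7 of 8 alternative settings and without any 1 of the 6 arrays, in the latter with adjusted p between 0.0320 and 0.0414 from limma. Tead1, in its brighter probe set, read 8.94, 8.78 and 8.76 in wild type and 9.08, 9.06 and 9.04 in 8KR cells. The difference of 0.23 had an interval of 0.03 to 0.43 (adjusted p = 0.189 from limma), and the second probe set of the gene gave 0.21 (adjusted p = 0.291 from limma). Tead2 exceeded Tead1 in its response by 0.53 on the log2 scale (standard error 0.05, exact permutation p = 0.1, again the smallest possible and 0.2 after adjustment), and the arrays of the groups did not overlap.

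Amotl1, an angiomotin family scaffold at cell junctions, did not pass. It read 7.31, 7.10 and 7.08 in wild type and 7.05, 6.86 and 7.00 in 8KR cells, groups that were separate by only a small gap. The difference was -0.19 with a 95% interval of -0.43 to 0.05 (adjusted p = 0.367 from limma). Against Amotl2 it differed in response by 0.14 (standard error 0.09, exact permutation p = 0.2).

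Ordered by the log2 difference, the genes ran from Ctgf through Yap1, Wwtr1, Amotl1, Amotl2, Cyr61, Tead1 and Lats2 to Tead2 and Ankrd1. The 95% intervals of Ankrd1 and Tead2 were separate from each other and from those of all the other genes. From Ctgf to Lats2, each interval overlapped that of the next gene in the order.

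**Figure D3:**
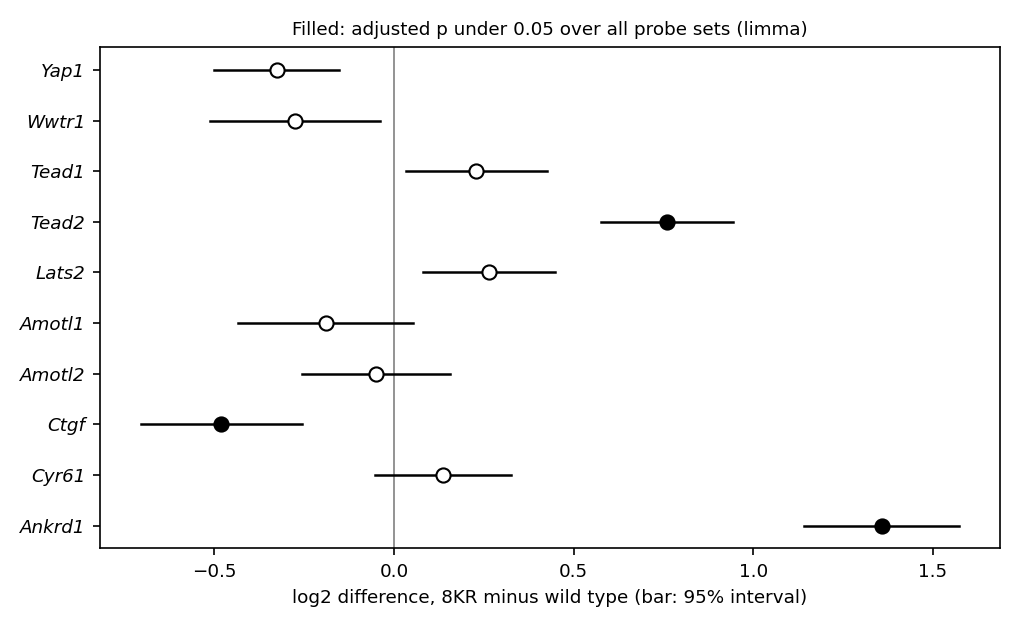
Log2 difference (8KR minus wild type, horizontal axis) of each gene with its 95% interval from limma, and filled points for genes with an adjusted p under 0.05. Ankrd1 at 1.36 and Tead2 at 0.76 lie apart on the right, and Ctgf at -0.48 is the lowest.

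The chromosomal surroundings of each gene were described by the 5 nearest tested genes on each side, in the order of the RefSeq table. Counts of neighbours stand beside the 5.39% of all tested genes that passed. None of the 10 neighbours of Ankrd1 on chromosome 19 passed, and their differences ran from -0.18 to 0.38 with a median of 0.11. Of these, 7 were above 0 and 3 below. The highest was that of Pcgf5, beside Ankrd1, which did not pass (adjusted p = 0.0617 from limma). Around Tead2 on chromosome 7, again no neighbour passed, and differences lay between -0.15 and 0.26 with a median of -0.06. Ctgf on chromosome 10 also had no neighbour that passed, and the median was -0.11, but Enpp3 beside it had a larger difference than Ctgf, -0.60, and did not pass (adjusted p = 0.0633 from limma). Many of these neighbours were dim, which limits what their differences show. Around Tead2 only Pih1d1 and Rpl14-ps1 had means above 5. Means were below 5 for Taar4, Taar5, Taar6, Moxd1 and Arg1 near Ctgf, and for Mir107, A830019P07Rik, Htr7 and Fgfbp3 near Ankrd1.

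Around genes that did not pass, some neighbours did, named here after their values were seen, where 5.39% of all tested genes passed. Next to Yap1, Cfap300 fell by 0.80 on the log2 scale, while the median of the 10 neighbours was 0.05. Around Amotl2 the median was -0.27, and 3 neighbours fell, with Anapc13 at -0.94. Near Amotl1 the median was -0.21, close to the -0.19 of Amotl1 itself, and Cwc15 fell by 0.69. Lats2 had a neighbour median of 0.17 and 2 neighbours that rose, including Xpo4 at 0.55, and its own difference was 0.26. Dkk3, of the Dickkopf family of secreted proteins, rose by 1.35 near Tead1, where the median was 0.05. The part of such regional shifts in the differences of Amotl1 and Lats2 was not tested.

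**Figure D4:**
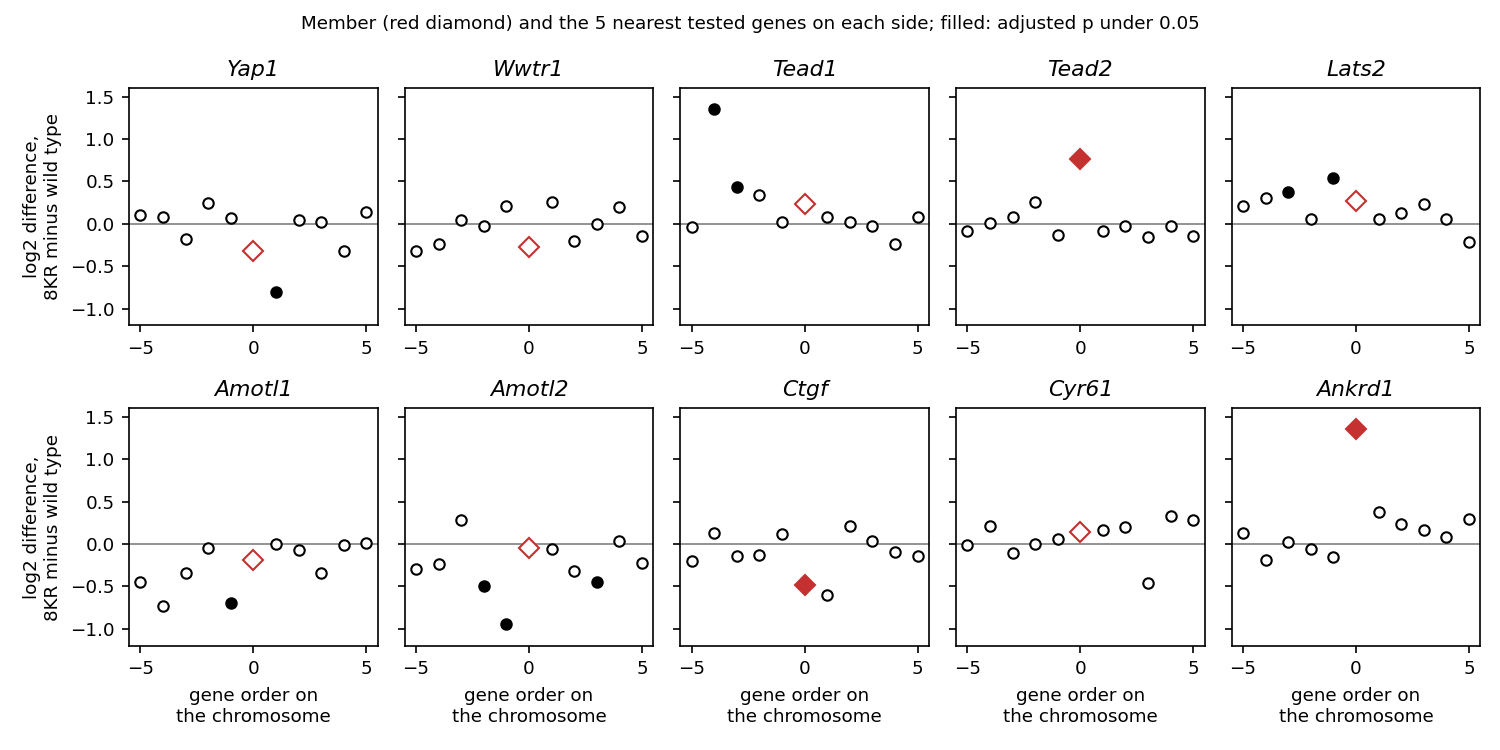
Log2 difference (8KR minus wild type, vertical axis) of each gene (red diamond) and of the 5 nearest tested genes on each side in chromosomal order (circles), with filled symbols for an adjusted p under 0.05. Ankrd1 and Tead2 stand above all their neighbours, which lie mostly above 0 for Ankrd1 and mostly below 0 for Tead2, Amotl1 and Amotl2.

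The pathway around these genes was described with lists of its other components. Counts in them stand beside the 5.39% of all tested genes that passed, and 10.7% of those at least as bright as Lats2. Upstream, none of 19 tested Hippo kinases, adaptors and scaffolds passed by limma. Their median log2 difference was -0.01, and 5 had an unadjusted p under 0.05, where 21.8% of all tested genes did. Amot, the third angiomotin, was closest to the threshold and was singled out after its value was seen, with a difference of 0.35 (adjusted p = 0.0537 from limma). With the filter on low values raised to a group mean above 5.0, 2 of the 17 then tested passed, where 17.6% of all genes tested did. No call was made either among 11 genes of 14-3-3 proteins and of the turnover of YAP and TAZ, of which 1 had an unadjusted p under 0.05.

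Of 11 receptors, G proteins and regulators of the cytoskeleton that act upstream of YAP, F2r and Rock1 rose and 9 did not pass. F2r, the thrombin receptor PAR1, stood at 9.02, 9.02 and 9.07 in wild type and 9.74, 9.66 and 9.70 in 8KR cells (difference 0.66, adjusted p = 0.00864 from limma). Rock1, a kinase that acts on the actin cytoskeleton, had a difference of 0.61 (adjusted p = 0.0292 from limma), and it lost its call when any 1 array was left out (adjusted p = 0.0728 to 0.0987). Among 6 other TEAD and Vgll genes, Vgll3 alone passed. Vgll3, a cofactor that also binds TEAD factors, read 8.64, 8.56 and 8.76 in wild type and 8.02, 7.95 and 7.89 in 8KR cells. It fell by 0.70 on the log2 scale (adjusted p = 0.0137 from limma), a call that among leave-one-out fits was kept only without wild type replicate 2 (adjusted p = 0.0418 to 0.0604). Tead3 and Tead4 did not pass, at 0.23 and -0.26.

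Targets described for YAP and TAZ moved in both directions. In a signature of 17 further targets, 3 rose, 1 fell and 13 did not pass, where 5.39% of all tested genes passed. The median difference was 0.08, and 8 of the 17 had an unadjusted p under 0.05, where 21.8% of all tested genes did. F3, the tissue factor that starts clotting, rose from 6.77 ± 0.13 to 7.82 ± 0.07 (SD, n = 3 each, log2 difference 1.05). Crim1, a transmembrane protein that binds bone morphogenetic proteins, rose from 8.42 ± 0.05 to 9.31 ± 0.02 (difference 0.89). Axl, a receptor tyrosine kinase, went from 9.29 ± 0.09 to 10.11 ± 0.02 (difference 0.82). These 3 kept their calls without any 1 array. Ccdc80, a matrix protein, fell by 0.67 on the log2 scale, and its call held only without wild type replicate 1 among leave-one-out fits (adjusted p = 0.0482 to 0.0928 from limma).

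Of 11 more targets described for the pathway, 2 rose and 1 fell, again beside 5.39% of all tested genes that passed. An unadjusted p under 0.05 was found for 6 of the 11, beside 21.8% of all tested genes. Thbs1, the matricellular thrombospondin, rose from 10.04 ± 0.08 to 11.09 ± 0.05 (SD, n = 3 each, difference 1.05). Ajuba, a LIM protein that restrains Lats kinases, rose by 0.66 on the log2 scale, with its call kept only without wild type replicate 3 when an array was left out (adjusted p = 0.0463 to 0.0835 from limma). Dlc1, a GTPase-activating protein, fell by 1.19 in its brighter probe set, whereas its dimmer probe set, with means near 4, gave 0.16 (adjusted p = 0.793 from limma). Edn1, singled out after its value was seen, had a difference of 0.72 and did not pass (adjusted p = 0.0638 from limma).

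Relatives of Ctgf and Ankrd1 were examined for changes of the same kind. Of 6 other CCN and muscle ankyrin repeat genes, only Wisp2 (listed as Ccn5), a CCN protein that lacks the C-terminal domain of Ctgf, passed. It read 8.31, 8.02 and 8.11 in wild type and 6.37, 6.59 and 6.54 in 8KR cells, well below the wild type range. Wisp2 fell by 1.64 on the log2 scale (standard error 0.11, adjusted p = 0.00246 from limma), 3.12-fold lower, and more than Ctgf did. Ankrd2 and Ankrd23, the nearest relatives of Ankrd1, had differences of 0.13 and 0.19 and did not pass.

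**Figure D5:**
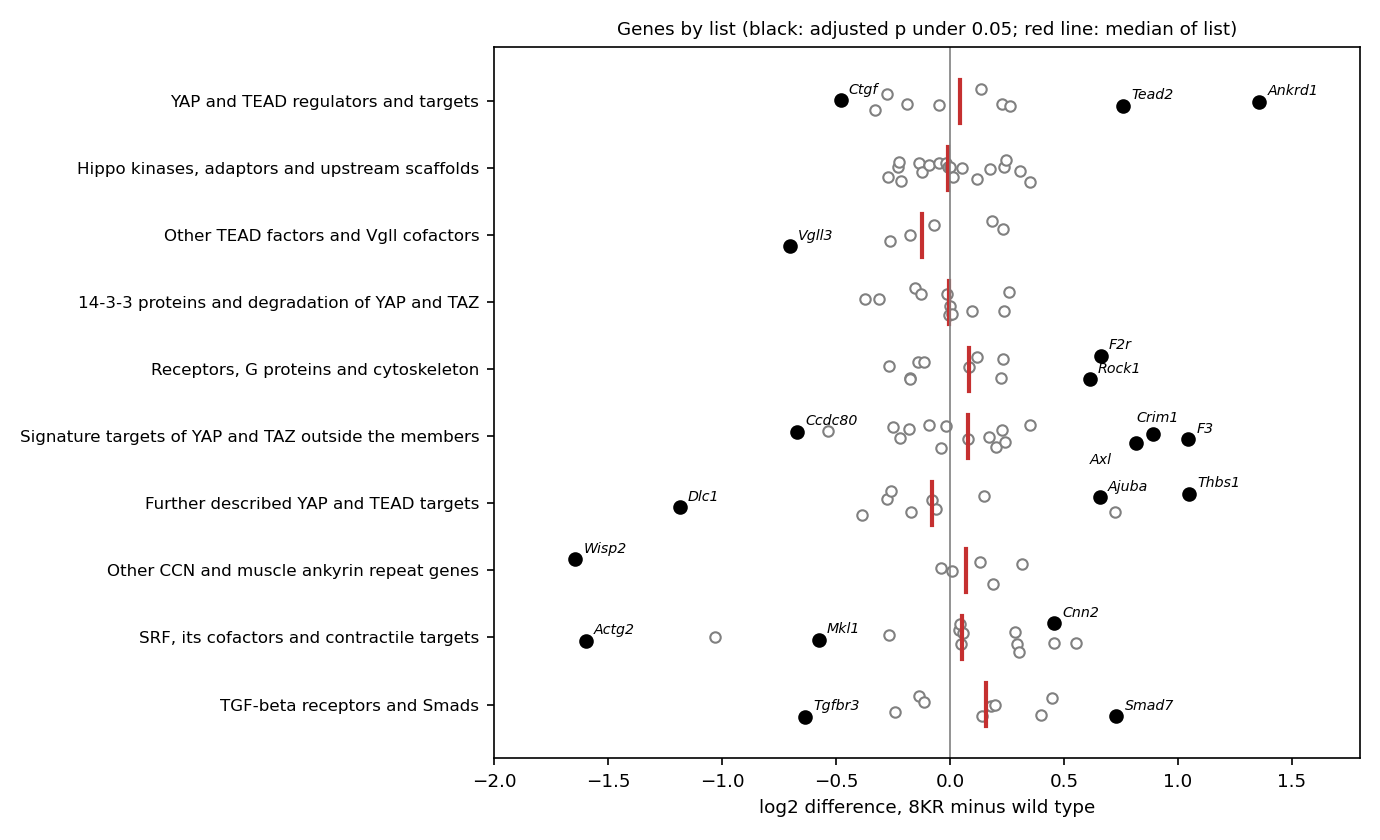
Log2 difference (8KR minus wild type, horizontal axis) of the tested genes in each list (rows), with black points for an adjusted p under 0.05, open points for the rest and a red line at the median of the list. The Hippo kinases lie close to 0, whereas target lists spread to both sides, from Dlc1 at -1.19 to Thbs1 at 1.05.

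The 9 lists counted here include those of serum response factor and of TGF-beta, described under other observations. Over all 9 lists, 16 of 105 tested genes passed, 9 higher and 7 lower in 8KR cells, or 15.2%. All tested genes passed at 5.39%, and those at least as bright as Lats2 at 10.7%. Median levels of the lists ran from 5.15 to 8.69, against 5.40 over all tested genes, so nothing is read from this share. The median difference was 0.01. With any 1 array left out, 8 to 10 genes of these lists passed, and over all tested genes the share then fell to between 1.59% and 1.71%. RNA was measured here, whereas the phosphorylation and location of YAP and TAZ were not, and in bulk samples fewer cells with a transcript cannot be told from less of it per cell.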

How the data were processed

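RNA of 6 samples of NIH/3T3 cells was hybridized to Affymetrix Mouse Gene 1.0 ST arrays. The authors deposited 1 log2 intensity per probe set and array, after a normalization whose method no source used here names. Affymetrix Power Tools 1.12.0 is listed in the processing notes of the submitters. As in the study's methods, a probe set was kept here if the mean of at least 1 group exceeded 3.0, which left 28543 of 35557. Groups were compared by lmFit and eBayes of limma 3.58.1 (R 4.3.3) without covariates. The fit was tested on simulated data. The Benjamini-Hochberg adjustment ran over all probe sets kept. Symbols came from the platform annotation, updated through Entrez identifiers with the RefSeq table of GRCm38.p6. For a gene with several probe sets, the one brightest on average over the 6 arrays was used, and probe sets with several symbols or none were not named. The array build is not stated, so the only coordinates printed are those of promoter windows, on build GRCm38.p6. Of the listed genes, Stk3, Rock2, Areg, Kdr, Ptprc, Adgre1 and Itgam were not tested, and 1 item is not reported here.

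The 10 genes and the lists were chosen with earlier results of these data known. Named genes were the 10, at most 4 called genes per list, those of smallest adjusted p, marker genes and called neighbours of those called, with exceptions stated. Alternatives changed the filter, normalization, centring, variance model, array weights, replicate block, probe sets fitted and arrays left out. The number of arrays limits the precision. Figures were drawn with matplotlib 3.10.9.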

Additional observations from a re-analysis of the deposited data

How the results depend on the processing

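Ankrd1 passed under every alternative, and all genes kept the sign of their difference except Amotl2, which turned to 0.0048 without 8KR replicate 2 and ranged down to -0.10 with another array left out. The difference between Yap1 and Wwtr1 ran from -0.13 to 0.046 over the same fits. When the filter required a group mean above 5.0, 5 of the 10 genes passed, Yap1 (adjusted p = 0.0222 from limma) and Lats2 (0.0485) being added, and 28 of the 93 genes of the wider lists then tested. Over all genes that filter gave 1737 calls of 9883 tested, or 17.6%, in place of 924 of 17145, an intensity trend 1528, single-symbol probe sets 1638 and leaving out 1 array 274 to 293. Yap1 also passed with an intensity trend in the variance and over probe sets with a single symbol (adjusted p = 0.0230 and 0.0406). Ctgf lost its call with no filter and with quantile normalization (adjusted p = 0.0642 and 0.0634). In a fit with a replicate block, 1 of the 10 genes passed, Ankrd1, and 1 gene of the wider lists, Actg2, while over all tested genes 63 passed. Tead2 had an adjusted p of 0.0705 in that fit. The deviations of arrays with the same number were unrelated (correlations of -0.0113, 0.00858 and -4.84e-04). With 3 arrays per group this cannot show whether such samples shared a culture or batch, and the labels give only the number. Leaving out 1 array gave 8 to 10 calls in the wider lists, as stated above. Taking 10 neighbours on each side moved the neighbour median of Ankrd1 to -0.03 and of Cyr61 from 0.11 to 0.04, that of Amotl2 to -0.15 and that of Tead2 from -0.06 to 0.0037.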

Other observations

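Serum response factor, together with its actin-sensing cofactors, shares several targets with YAP. Of 14 genes listed for it, 1 rose and 2 fell, where 5.39% of all tested genes passed. The median log2 difference was 0.05, with 10 genes higher and 4 lower in 8KR cells. Of the 14, 9 had an unadjusted p under 0.05, where 21.8% of all tested genes did. The list is bright, with a median level of 8.69 against 5.40 over all tested genes, so nothing is read from this count. Srf itself, singled out after its value was seen, had a difference of 0.55 and did not pass (adjusted p = 0.0548 from limma). Actg2, a smooth muscle actin, fell from 8.62 ± 0.09 to 7.02 ± 0.05 (SD, n = 3 each), and Mkl1 (listed as Mrtfa), a cofactor of serum response factor, fell by 0.58 on the log2 scale. The calponin gene Cnn2 rose by 0.46. Actg2 passed without any 1 array, Mkl1 only without wild type replicate 2 (adjusted p = 0.0452 to 0.0933 from limma), and Cnn2 in none of these fits (adjusted p = 0.0780 to 0.106). The list count ranged from 1 to 7. It was 1 with the replicate block, where 0.367% of all tested genes passed, and also without wild type replicate 1, among other leave-one-out fits. It was 7 when a group mean above 5.0 was required, where 17.6% of all genes then tested passed.

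Ctgf is also a target of TGF-beta signals, whose part in its level was not tested. Among 10 genes, for Tgfb1, its receptors, Smads, Ski and Skil, 1 rose and 1 fell, where 5.39% of all tested genes passed. Means were higher in 8KR cells for 6 of them and lower for 4. Smad4, singled out after its value was seen, had a difference of 0.45 and did not pass (adjusted p = 0.0523 from limma). Smad7, an inhibitor of the pathway, rose by 0.73 (log2), whereas the coreceptor gene Tgfbr3 fell by 0.63. Both lost their calls when any 1 array was left out (adjusted p = 0.0543 to 0.0742 for Smad7 and 0.0825 to 0.133 for Tgfbr3 from limma). Of the fibroblast markers, Col3a1 fell by 0.52 and the other 9 did not pass.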
